A study of Mus musculus with 2 samples.

Results

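The genes described here are 10 genes of amino acid supply in the mouse leukemia ALL211, which is a T-ALL (T-cell acute lymphoblastic leukemia). They are 6 plasma membrane amino acid transporter genes (Slc7a5, Slc3a2, Slc1a5, Slc7a1, Slc38a1 and Slc38a2), the asparagine synthetase gene Asns, and 3 regulators of the amino acid stress response (Atf4, Ddit3 and Trib3). They were chosen by name, with earlier results of these data known. All 10 were found by their Entrez identifiers among the 27179 genes counted by RNA sequencing.

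ALL211 is a single primary leukemia that carries Vav-tTA and TRE-GFP-shIkaros. The Vav promoter, which is active in blood cells, drives the tetracycline-controlled transactivator, and the transactivator drives GFP together with a short hairpin RNA against Ikaros. Doxycycline (Dox) switches the hairpin off, so that endogenous Ikaros can return. Leukemia cells were sorted by flow cytometry from the spleens of leukemic recipient mice. The Dox group (3 days of Dox, sorted as GFPmid) and the untreated group (sorted as GFPhigh) had 1 library each, although the series design names 2 mice per condition, and both groups carried the same transgenes.

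No test was possible with 1 library per condition, so no p-value is given and every difference below lacks a check by replicates. Treatment, sorting gate and animals all differed between the libraries and cannot be told apart. Each fold carries a 95% interval that covers counting error only, and reads that are PCR copies of a molecule would make even that too narrow. In RNA from a cell population, fewer cells of a type and less RNA per cell cannot be told apart either.

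Leukemic and activated T cells take up large neutral, cationic and small neutral amino acids through distinct carriers. The protein of Slc7a5, a light chain also known as LAT1, imports leucine and other large neutral amino acids, and reaches the membrane only when bound to the heavy chain encoded by Slc3a2 (CD98hc, also called 4F2hc). When amino acids are short, the kinase GCN2 phosphorylates the translation factor eIF2, which favours translation of the Atf4 mRNA. ATF4 then activates genes of amino acid uptake and synthesis, Asns and many transporters among them, and of feedback, Ddit3 (CHOP) and Trib3 among them. Since ATF4 is controlled largely at translation, the Atf4 mRNA level does not give its protein level.

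ATF4 binds with C/EBP partners at composite elements that begin TGATG, and TGATGNAA was searched on both strands of RefSeq promoter windows (GRCm38.p6). Each window holds 250 bases before and 50 bases from a gene's start, and windows of 7 of the 10 genes were matched. Slc7a5, Slc1a5 and Slc38a1 had no window, so their promoters were not searched. Of all 27025 genes with a window, 4.51% held the motif. Among the 7 genes it was found in Asns and in Trib3, and their surroundings are shown because Asns was among the lowest of the 10 genes by log2 fold while Trib3 was not lower. Capitals mark the motif. The Asns stretch lies at chr6:7693210-7693262 on the minus strand, with the motif 23 to 16 bases before the start. The Trib3 stretch lies at chr2:152344028-152344057 on the minus strand, with the motif read on the opposite strand at bases 15 to 22 of the transcribed part.
Asns: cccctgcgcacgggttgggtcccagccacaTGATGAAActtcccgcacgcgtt
Trib3: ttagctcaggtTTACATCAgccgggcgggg
The E-box CACGTG, bound by several helix-loop-helix factors, was in 8.09% of genes with a window and in 0 of the 7. These matches describe letters only and do not show binding.

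The libraries held 16484613 counts over 15995 genes with Dox and 16960042 counts over 15487 genes untreated. Ikzf1, which encodes Ikaros, had 20131 counts in the Dox library and 2057 in the untreated library, 10.2-fold higher with Dox, the direction the labels imply. All 12 markers of T cells were present, with a summed level of 13782 CPM (counts scaled to library size) with Dox and 11132 CPM untreated. Markers of several other cell types also differed. Of all genes that reached 1 CPM in either library, 13.6% were at least 2-fold higher with Dox and 13.0% at least 2-fold lower. Of 15 macrophage markers, 12 reached 1 CPM and all 12 were at least 2-fold higher with Dox, with a summed level of 343 CPM with Dox and 71.9 CPM untreated. Only Marco was at 0 with Dox, and Cd14, Marco and Mertk were at 0 untreated. Of 7 dendritic cell markers that reached 1 CPM, 6 were at least 2-fold higher (summed level 170.2 CPM with Dox and 114 CPM untreated, with 5 of 9 at 0 untreated). Among these 6, Clec9a, Siglech and Zbtb46 were at 0 untreated, reached 1 CPM in the Dox library alone and so had to be higher. The 9 B-cell markers summed to 955 CPM with Dox and 348 CPM untreated, with Pax5 and Ebf1 among those at 0 in both libraries, and 6 of 7 erythroid markers were at least 2-fold higher with Dox. Both natural killer markers that reached 1 CPM, Klrk1 and Prf1, did so in the Dox library alone, with 0 counts untreated, and so had to be higher. Of 3 markers of stroma and endothelium that reached 1 CPM, 2 were lower by 2-fold or more (summed level of all 6 in the list 40.4 CPM with Dox and 87.5 CPM untreated). The 4 plasma cell markers summed to 76.6 CPM with Dox and 85.1 CPM untreated, with 1, Jchain, at least 2-fold higher. Jchain had 34 counts with Dox and 0 untreated, reached 1 CPM in the Dox library alone and so had to be higher. Of 4 neutrophil markers that reached 1 CPM, 2 were at least 2-fold higher, and 0 platelet markers reached 1 CPM. The part of these cell types in the results below was not tested.

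Transcripts of 3 of the 6 transporter genes and of Asns were lower by 2-fold or more in the Dox library, while those of the stress factor gene Ddit3 were higher. Of the 10 genes, all of which passed the filter of 1 CPM in either library, 4 were lower in the Dox library by 2-fold or more, 1 was higher by that much and 5 lay within 2-fold. Across the 12125 genes that passed the filter, 13.0% were lower by 2-fold or more and 13.6% higher. The 4 lower genes were Asns, Slc7a5, Slc7a1 and Slc3a2, and the higher gene was Ddit3. For these 5 the counting interval also lay wholly beyond 2-fold, as it did for 8.38% of all genes lower and 9.11% higher. At least 4-fold lower were Asns and Slc7a5, against 3.07% of all genes. The median log2 fold (Dox over untreated) of the 10 genes was -0.77, and that of all genes -0.01; 8 of the 10 had a value below 0, as had 6142 of the 12125.

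**Figure D1:**
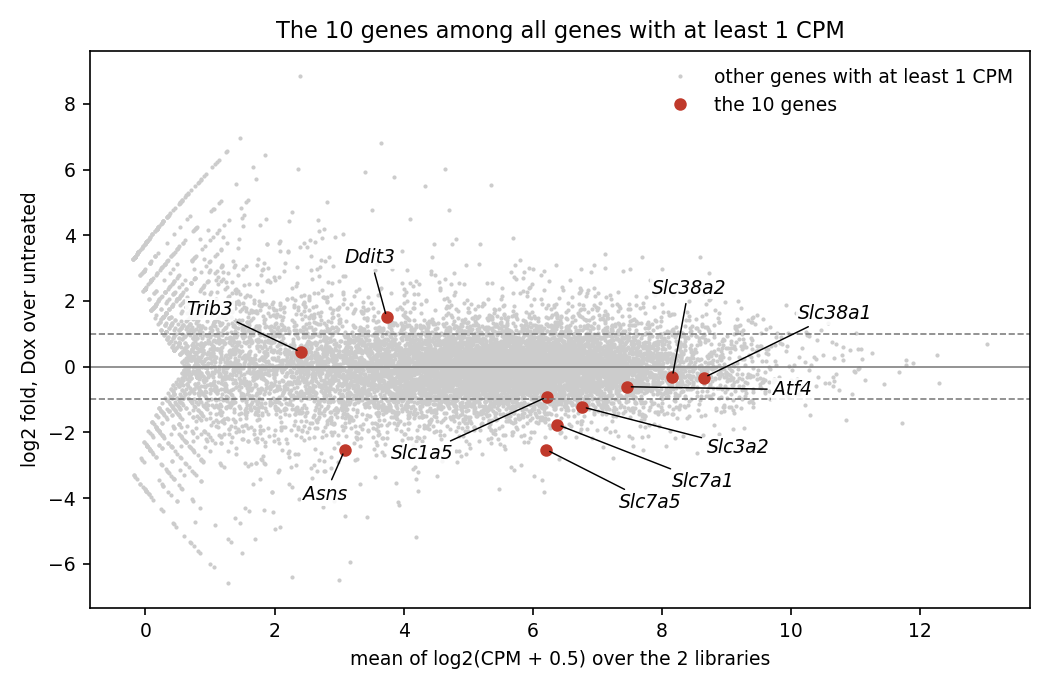
Log2 fold (Dox over untreated) against the mean log2 level of the 12125 genes that passed the filter (grey points), with the 10 genes in red; dashed lines mark 2-fold. Asns and Slc7a5 lie near -2.5, Ddit3 lies above the upper dashed line, and the abundant Slc38a1 and Slc38a2 near the middle of the cloud.

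Slc7a5 had the lowest log2 fold of the transporters. It had 498 counts (30.4 CPM) in the Dox library and 2997 counts (176 CPM) in the untreated library, 5.77-fold lower with Dox (log2 fold -2.52, interval -2.67 to -2.39). Only 1.64% of all genes had a lower log2 fold. Scaled also to gene length, its level was 8.66 CPM per kilobase with Dox and 50.0 CPM per kilobase untreated. Among the 12125 genes ordered from the highest level per length, it stood 57.5% from the top with Dox and 17.2% from the top untreated.

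Its heavy chain partner Slc3a2 differed less. Slc3a2 had 1159 counts (70.8 CPM) with Dox and 2827 counts (166 CPM) untreated, 2.34-fold lower (log2 fold -1.23, interval -1.33 to -1.13). The ratio of Slc7a5 to Slc3a2 transcripts per length was 0.362 (interval 0.325 to 0.402) in the Dox library and 0.893 (0.848 to 0.940) in the untreated library. Slc7a5 mRNA was thus close to Slc3a2 mRNA in the untreated library and well below it with Dox, a change in the ratio of 0.405 (0.360 to 0.456).

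Slc3a2 also pairs with other light chains, which were taken from the list of other amino acid transporters. Slc7a6, the light chain of a carrier that exchanges cationic for neutral amino acids, was lower by nearly the same factor as Slc3a2, with 971 counts with Dox and 2349 untreated (log2 fold -1.21). Its ratio to Slc3a2 per length was 0.664 (0.609 to 0.724) with Dox and 0.659 (0.624 to 0.696) untreated. Slc7a11, which encodes the cystine carrier xCT, had 227 counts with Dox and 115 untreated (log2 fold 1.03, interval 0.71 to 1.38). Slc7a7, a light chain of the same carrier type as Slc7a6, had 112 counts with Dox and 69 untreated. Slc7a8, also known as LAT2, had 26 counts with Dox and 2 untreated (ratio 13.6, interval 3.39 to 118), and Slc7a10 had 0 in both libraries. Summed over Slc7a5 and these light chains the level was 29.2 CPM per kilobase with Dox and 89.2 CPM per kilobase untreated. Both sums were above the level of Slc3a2, 23.9 CPM per kilobase with Dox and 56.0 CPM per kilobase untreated. Slc7a5 made up 29.7% of that sum with Dox and 56.0% untreated, and Slc7a6 54.5% with Dox and 41.3% untreated. Slc7a7, Slc7a8 and Slc7a11 were higher in the same library as the macrophage markers, and whether they came from the leukemia cells was not tested.

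**Figure D2:**
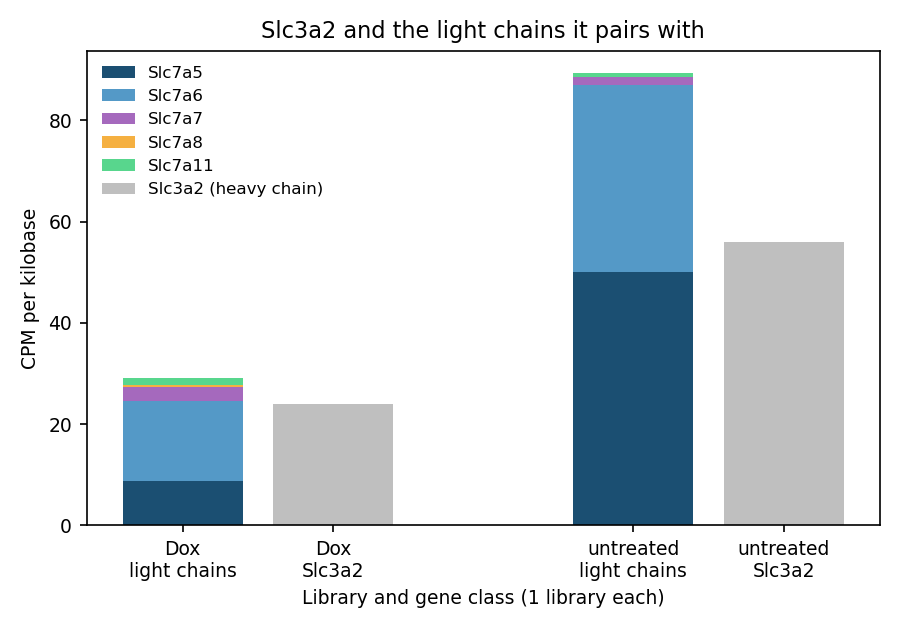
Level per gene length (CPM per kilobase, linear axis from 0) of the light chains that pair with Slc3a2, stacked, and of Slc3a2 itself, with the Dox library on the left and the untreated library on the right. Slc7a10 was at 0 in both. Slc7a5 forms 29.7% of the Dox stack and 56.0% of the untreated stack.

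Slc7a1, which encodes the main cationic amino acid carrier CAT1 for arginine and lysine, was also lower. It had 733 counts (44.8 CPM) with Dox and 2598 counts (152 CPM) untreated, 3.40-fold lower (log2 fold -1.76, interval -1.89 to -1.65). Slc1a5, which encodes the glutamine exchanger ASCT2, lay just inside 2-fold. It had 882 counts (53.9 CPM) with Dox and 1740 counts (102 CPM) untreated, 1.89-fold lower (log2 fold -0.92, interval -1.04 to -0.80). Its interval reached past 2-fold, so at this depth its side of the threshold was not settled even by counting error.

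Slc38a1 and Slc38a2 stood apart from the other transporters. They encode the sodium-coupled glutamine and small neutral amino acid carriers SNAT1 and SNAT2, and in GRCm38 they lie near each other on chromosome 15 (96571418 to 96643438 and 96687392 to 96699728, both on the minus strand). Slc38a1 had 5860 counts (358 CPM) with Dox and 7688 counts (450.4 CPM) untreated (log2 fold -0.33, interval -0.38 to -0.28). Slc38a2 had 4185 counts (256 CPM) with Dox and 5443 counts (319 CPM) untreated (log2 fold -0.32, interval -0.38 to -0.26). Both were slightly lower with Dox, by 1.26-fold and 1.25-fold. Their ratio per length was 0.772 (0.742 to 0.804) with Dox and 0.779 (0.752 to 0.807) untreated.

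The makeup of the 6 transporter transcripts differed between the libraries. Their summed level was 156 CPM per kilobase with Dox and 287 CPM per kilobase untreated. Slc38a1 and Slc38a2 made up 27.3% and 35.3% of the sum with Dox, against 18.7% and 24.0% untreated. Slc7a5 made up 5.54% with Dox and 17.4% untreated, and Slc7a1 3.99% with Dox and 7.39% untreated. The shares of Slc1a5 were 12.5% with Dox and 12.9% untreated. All 6 had log2 folds below 0, with a median of -1.07.

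**Figure D3:**
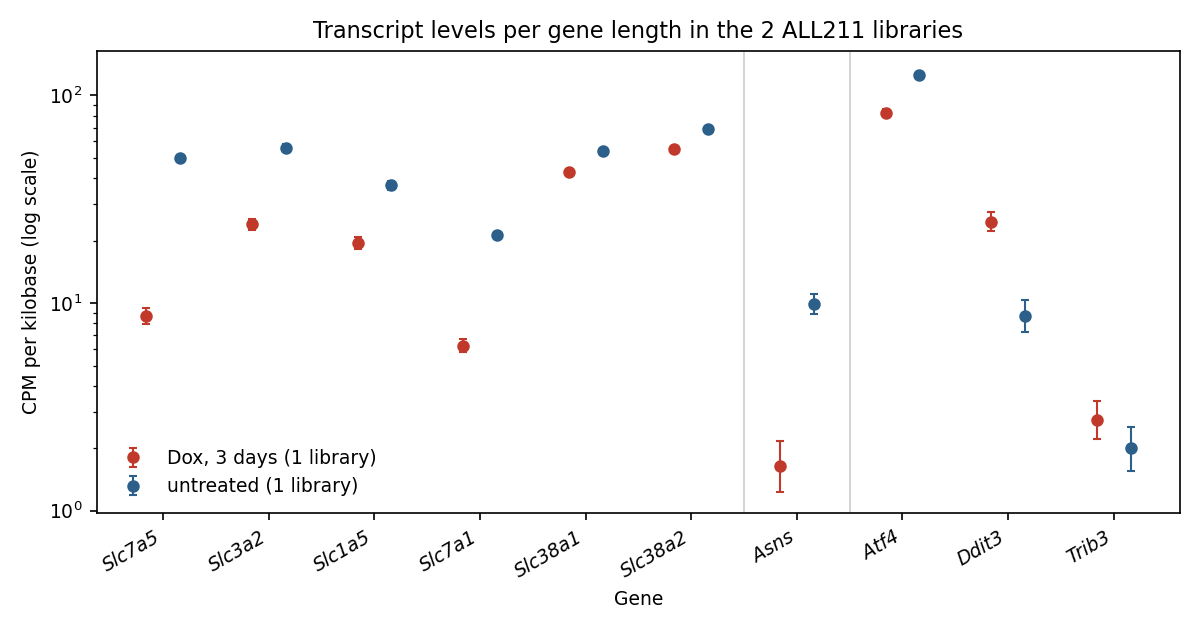
Level of each of the 10 genes in CPM per kilobase of gene length (log axis), with the Dox library to the left of the untreated library; bars are exact 95% Poisson intervals of the count and cover counting error only. The 6 transporters, Asns and Atf4 are lower with Dox, Ddit3 is higher, and the intervals of Trib3 overlap.

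Asns, the enzyme that makes asparagine from aspartate and glutamine, was lower by about as much as Slc7a5. It matters where leukemia is treated with asparaginase, since cells with little of the enzyme depend on asparagine from outside. Asns had 52 counts (3.18 CPM) in the Dox library and 326 counts (19.1 CPM) in the untreated library, 6.01-fold lower (interval 4.48 to 8.22; log2 fold -2.54, interval -3.04 to -2.16). The interval of Slc7a5 lies within that of Asns, and with a prior count of 5 the order turned (-2.48 for Asns and -2.52 for Slc7a5), as it did without the trend with gene length (-2.47 and -2.56). Its promoter held the motif shown above, and 1.57% of all genes had a lower log2 fold.

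The 3 regulators differed among themselves. Atf4 was the most abundant of the 10 genes per length in both libraries, at 82.4 CPM per kilobase with Dox and 126 CPM per kilobase untreated. It had 2327 counts with Dox and 3707 untreated, 1.53-fold lower (log2 fold -0.61, interval -0.69 to -0.54), within 2-fold. Ddit3, which encodes CHOP, a factor tied to prolonged stress, had 353 counts (21.6 CPM) with Dox and 129 counts (7.56 CPM) untreated. It was 2.85-fold higher (interval 2.32 to 3.52), and 7.29% of all genes had a higher log2 fold. It was higher in the same library as the macrophage markers, and their part in this was not tested. Ddit3 shares 68 of 1713 annotated exon bases with the methionyl-tRNA synthetase gene on the opposite strand (GENCODE M21). The deposited length of Ddit3 is only 871 bases, so whether the shared bases were counted is not known. No strand setting is stated for the counting, so any reads counted there cannot be told apart from those of the neighbouring gene. That neighbour, Mars1, was itself lower with Dox (log2 fold -1.17). Trib3, a pseudokinase that binds ATF4 and CHOP, had 92 counts (5.62 CPM) with Dox and 70 counts (4.10 CPM) untreated. Its log2 fold was 0.44 with an interval of -0.01 to 0.92, so a difference was not detectable at this depth.

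Set against Atf4 itself, its target genes went different ways. The ratio of Asns to Atf4 transcripts in the Dox library was 0.254 times that in the untreated library (interval 0.185 to 0.343). That of Ddit3 to Atf4 was 4.36 times as high with Dox as untreated (3.53 to 5.41), and that of Trib3 to Atf4 2.09 times (1.51 to 2.91). Asns was thus lower with Dox relative to Atf4, and Ddit3 and Trib3 were higher relative to it.

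**Figure D4:**
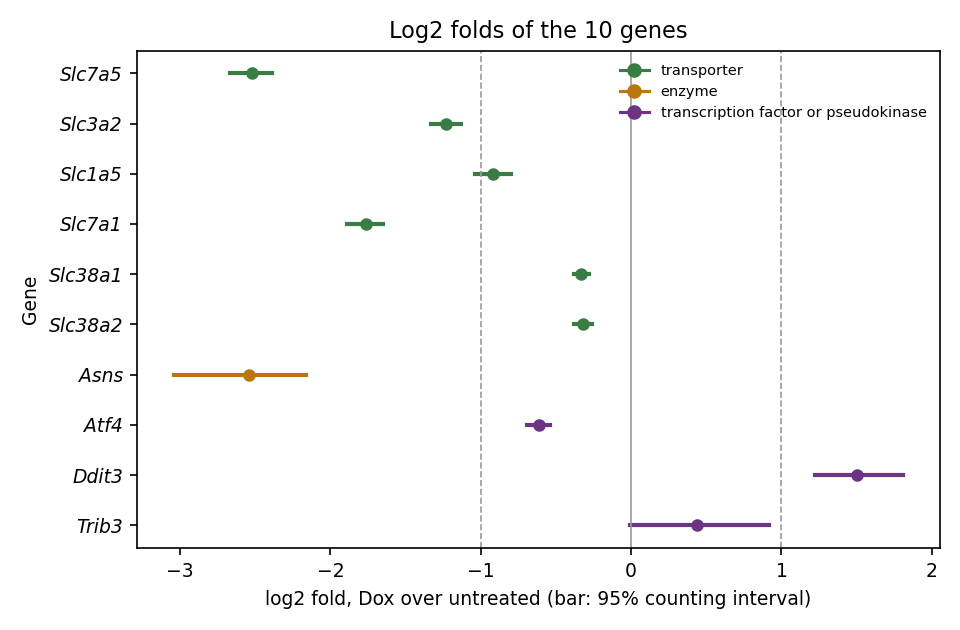
Log2 fold (Dox over untreated) of each gene with its 95% counting interval, coloured by role; dashed lines mark 2-fold. Asns (-2.54) and Slc7a5 (-2.52) lie furthest to the left, Ddit3 (2.85-fold) is the only gene of the 10 beyond 2-fold on the right, and the Slc1a5 interval crosses the left dashed line.

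The order of the genes by level per length differed between the libraries. In the Dox library it ran Atf4, Slc38a2, Slc38a1, Ddit3, Slc3a2, Slc1a5, Slc7a5, Slc7a1, Trib3 and Asns. In the untreated library it ran Atf4, Slc38a2, Slc3a2, Slc38a1, Slc7a5, Slc1a5, Slc7a1, Asns, Ddit3 and Trib3. Neighbours whose counting intervals overlapped were Ddit3 and Slc3a2 with Dox, and Slc3a2 and Slc38a1, as well as Asns and Ddit3, untreated. Asns moved to the last place with Dox, at 1.65 CPM per kilobase, against 9.91 CPM per kilobase untreated.

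Other amino acid transporters showed no common direction. Of 46 genes of the solute carrier families, 18 reached 1 CPM, with 4 lower by 2-fold or more, 4 higher and 10 within 2-fold, and a median log2 fold of 0.19. All genes, as given above, had 13.0% lower, 13.6% higher and a median of -0.01. Besides Slc7a6, the most abundant per length of this list untreated, the counting interval lay beyond 2-fold lower for Slc38a3, a glutamine carrier, with 2 counts with Dox and 39 untreated (ratio 0.0535, interval 0.00625 to 0.206). It also did for Slc7a3, another cationic carrier, with 2 counts with Dox and 30 untreated (ratio 0.0695, interval 0.00805 to 0.274). Both reached 1 CPM in the untreated library alone. In the other direction, Slc43a2, which encodes LAT4, a large neutral amino acid carrier that needs no heavy chain, had 2196 counts (134 CPM) with Dox and 772 counts (45.2 CPM) untreated (log2 fold 1.57, interval 1.45 to 1.69). The LAT4 transcript level per length, 18.5 CPM per kilobase with Dox and 6.25 CPM per kilobase untreated, was thus above that of Slc7a5 in the Dox library and below it in the untreated library. Its relative Slc43a1, which encodes LAT3, had 26.2 CPM per kilobase with Dox and 25.9 CPM per kilobase untreated. The remaining genes beyond 2-fold higher by their interval, Slc7a8 (given above) and Slc6a19, a neutral amino acid carrier of gut and kidney, with 43 counts with Dox and 6 untreated, had few counts. Both reached the filter through the Dox library alone.

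Other genes known as ATF4 targets were lower as a list, which was chosen with earlier results of these data known. Of 21, 17 reached 1 CPM, with 10 lower by 2-fold or more, 1 higher and a median log2 fold of -1.28, against 13.0%, 13.6% and -0.01 over all genes. Pycr1, Cbs and Chac1, all counted among the 10, reached 1 CPM in the untreated library alone and so had to be lower. The lower genes included enzymes of serine, one-carbon and proline synthesis. Shmt2, the mitochondrial serine hydroxymethyltransferase gene and the most abundant of the list per length untreated, had a log2 fold of -2.17, and the serine synthesis genes Phgdh and Psat1 had -1.76 and -1.43. Psph, the last enzyme of serine synthesis, had -0.14. Mthfd2, of mitochondrial folate metabolism, had 1104 counts with Dox and 2907 untreated (-1.34), Xpot, the tRNA exportin gene, 690 with Dox and 1811 untreated (-1.33), and Stc2, a secreted glycoprotein gene, 59 with Dox and 196 untreated (-1.64). Pycr1, of proline synthesis, and Cbs, of transsulfuration, had few counts with Dox, 8 against 54 untreated and 4 against 41 untreated. The gene at least 2-fold higher, named after its value was seen, was Ddit4, which encodes the mTORC1 inhibitor REDD1, at 5221 counts with Dox and 2418 untreated (1.17). Sesn2, also an inhibitor of mTORC1, had 0.79. The motif TGATGNAA was in 6 of the 18 genes of this list with a promoter window, and CACGTG in 6 of the 18. Over all genes these shares were 4.51% and 8.09%, and among other amino acid transporters TGATGNAA was in 3 of 36. The 6 ATF4 target genes with TGATGNAA were Chac1, Nupr1, Vldlr, Pycr1, Fgf21 and Jdp2, of which Nupr1, Vldlr and Fgf21 did not reach 1 CPM. The lower genes Shmt2, Phgdh, Psat1, Mthfd2, Xpot and Stc2 were not among the 6. Only 18 of the 21 genes had a window, and those without one are not named here. Except for Xpot, whose window held CACGTG, absence from the 6 thus need not mean that the motif was absent.

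Cytosolic aminoacyl-tRNA synthetase genes, which load tRNAs with amino acids and several of which ATF4 induces, were lower by smaller factors. Of 20 genes, 7 were lower by 2-fold or more and 0 higher, 19 had a log2 fold below 0, and the median was -0.78, against 13.0% lower, 13.6% higher and a median of -0.01 over all genes. Among the lower genes, Vars1 and Eprs1 had -1.33 each, Rars1 -1.26, Iars1 -1.25, Yars1 -1.19 and Mars1 -1.17. Gars1, the most abundant per length untreated, had -0.86, and Qars1, the synthetase for glutamine and the exception named after its value was seen, 0.24. TGATGNAA was in 5 of 13 genes of this list with a window and CACGTG in 4 of 13, against 4.51% and 8.09% over all genes. The 5 were Iars1, Yars1 and Gars1, whose log2 folds are given above, Tars1 (-0.75) and Aars1 (-0.54).

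The machinery upstream of Atf4 was mixed. Of 17 genes of the eIF2 kinases, their phosphatase subunits, eIF2 and its exchange factor eIF2B, 4 were lower by 2-fold or more and 1 higher, with a median of -0.34 (13.0%, 13.6% and -0.01 over all genes). Eif2s1, the subunit that the stress kinases phosphorylate and the most abundant of the list per length untreated, had 2517 counts with Dox and 5805 untreated (-1.15), Eif2s2 -1.11, and the eIF2B subunit gene Eif2b3 -1.93. Eif2ak4, which encodes the amino acid sensor GCN2, had 189 counts with Dox and 412 untreated (-1.06, interval -1.32 to -0.81), while the other kinase genes Eif2ak1, Eif2ak2 and Eif2ak3 lay between 0.30 and 0.52. Ppp1r15a, which encodes the stress-induced phosphatase subunit GADD34, was higher, like Ddit3. It had 1018 counts with Dox and 315 untreated (1.75, interval 1.57 to 1.94). Its constitutive relative Ppp1r15b had 2428 counts with Dox and 2944 untreated. The ratio of Ppp1r15a to Ppp1r15b was 3.92 times as high with Dox as untreated (interval 3.41 to 4.51).

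Partners of ATF4 and relatives of Trib3 had a median of 0.12 over 6 genes that reached 1 CPM, with 1 lower by 2-fold or more and 1 higher, too few to set against the 13.0% and 13.6% of all genes. Trib2, a Tribbles pseudokinase gene known as an oncogene in leukemia, had 9105 counts with Dox and 4234 untreated (1.16). Per length, Trib2 exceeded Trib3 by a factor of 48.4 with Dox and 29.6 untreated. The C/EBP gene Cebpb, at least 2-fold lower, had -1.25 with an interval of -1.67 to -0.88, Nfe2l2, the most abundant of the list per length untreated, -0.03, and Atf3 had 8 counts with Dox and 0 untreated.

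Genes of the endoplasmic reticulum, whose stress can also induce Ddit3, were split in direction, with 10 of 18 below 0 and 8 above. Of these chaperone and unfolded protein response genes, 0 were lower by 2-fold or more and 2 higher, Ern1 (1.07) and Ero1b (1.06), with a median of -0.19, shares not above the 13.0% and 13.6% of all genes, and for 0 of them did the counting interval lie beyond 2-fold. The lowest were Pdia6 and Sdf2l1 at -0.99 each, just inside 2-fold. Their intervals, -1.05 to -0.92 and -1.14 to -0.84, reached past that threshold. The chaperone genes Hspa5 and Hsp90b1 had -0.36 and -0.66, and Calr, the most abundant per length untreated, -0.60. Above 0 were Herpud1 (0.84), Dnajc3 (0.75), Dnajb9 (0.58), Edem1 (0.45) and Xbp1 (0.32), genes of protein folding, degradation and the unfolded protein response, each within 2-fold.

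**Figure D5:**
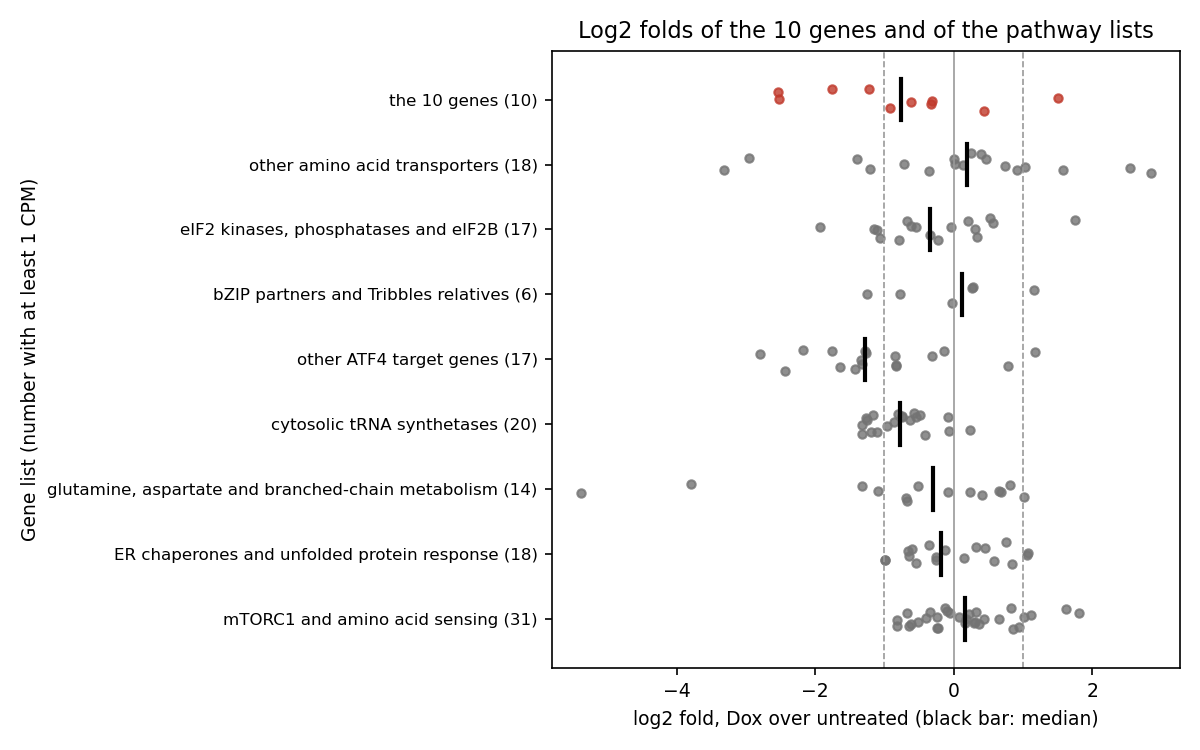
Log2 folds (Dox over untreated) of the 10 genes (red) and of the genes of each pathway list that passed the filter (grey), with the list median as a black bar and dashed lines at 2-fold. Medians are -1.28 for other ATF4 target genes and -0.78 for the tRNA synthetases, against 0.19 for other amino acid transporters.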

How the data were processed

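RNA sequencing of sorted ALL211 cells gave 1 Dox and 1 untreated library. The authors deposited raw read counts per Entrez gene with a gene length, per the file headers, and the submitters' processing notes list CASAVA 1.8.2, featureCounts (version not given) and build mm10. Aligner, annotation and strand setting: not given in the sources used here. In the series table the counts were those of the sample tables (0 genes differed in either), and 0 columns belonged to other samples. RefSeq (GRCm38.p6) gave symbols to 25275 of 27179 genes.

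Counts were scaled with TMM factors over all genes (0.994 Dox, 1.01 untreated; edgeR 4.0.16, R 4.3.3). Log2 folds carry a prior count of 2; CPM and plain ratios do not. The filter kept genes that reached 1 CPM in either library. Ratios have exact 95% Clopper-Pearson intervals of the conditional binomial distribution; changes of a ratio of 2 genes between libraries have exact conditional odds ratio intervals. A floor of 3 counts is 0.183 CPM with Dox and 0.176 CPM untreated. The calculation was checked on simulated counts.

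The 10 genes and the lists were chosen with earlier results of these data known. Named are, per list, up to 8 genes with an interval beyond 2-fold, by absolute log2 fold, and the most abundant per length untreated; pairs of genes set side by side, and other genes named, were chosen after values were seen. A few genes of the lists are not reported here by name. Alternatives were total-count, upper quartile and DESeq2 1.42.0 scaling, a prior count of 0.5 or 5, a filter at 1 count or 5 CPM, totals without 67 marker genes or 101 mitochondrial and ribosomal protein genes, a 4-fold threshold, the interval as threshold and, added after the data were seen, removal of a trend with gene length (lowess, statsmodels 0.14.6). Python 3.11.15, numpy 2.4.6, scipy 1.17.1, pandas 2.3.3 and matplotlib 3.10.9 were used.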

Additional observations from a re-analysis of the deposited data

How the results depend on the processing

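No paired analysis was possible because each condition had 1 library, and leaving out a library was not possible for the same reason. The counts of 4 genes lower by 2-fold or more and 1 higher were the same under each alternative run except the 4-fold threshold, which left 2 lower and 0 higher. The filters at 1 count and 5 CPM, included in the ranges below, cannot alter the log2 fold of a gene. Under the other alternatives, none of the 10 log2 folds changed sign. Their ranges over 10 alternatives were -2.56 to -2.50 for Slc7a5, -2.58 to -2.47 for Asns, -1.93 to -1.74 for Slc7a1, -1.24 to -1.20 for Slc3a2, -0.94 to -0.89 for Slc1a5, -0.63 to -0.51 for Atf4, 0.42 to 0.50 for Trib3 and 1.48 to 1.71 for Ddit3. Removing the trend with gene length moved Slc38a1, the longest of the 10, to -0.55. The median of all genes stayed between -0.03 and 0.03.

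Among the lists, other amino acid transporters depended on the filter, with 11 at least 2-fold higher over genes with at least 1 count and 1 lower and 2 higher over genes with at least 5 CPM, against 4 and 4. Over genes with at least 1 count, 2 ATF4 partners were higher, against 1. List medians moved to 0.46 (at least 1 count) and 0.32 (at least 5 CPM) for other transporters, against 0.19, to 0.27 (at least 1 count) for ATF4 partners, against 0.12, and to -0.08 (at least 5 CPM) for the glutamine list, against -0.30. By the counting interval, 2 of the 4 sensing genes, 0 of the 2 chaperone list genes (0 also without the length trend) and 0 of the glutamine list (0 also with total-count scaling) were at least 2-fold higher, and the 1 ATF4 partner at least 2-fold lower was no longer past the threshold. With total-count scaling, 2 chaperone genes were at least 2-fold lower, against 0. At 4-fold, 3 ATF4 targets, 2 other transporters and 2 glutamine list genes were lower and 2 other transporters were higher, with 0 in every other list and direction. Depth limits Asns with Dox (52 counts), Trib3 (92 counts with Dox and 70 untreated) and the side of the 2-fold threshold on which Slc1a5 lies.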

Other observations

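Enzymes that use the imported amino acids were mixed as a list, with 4 of 14 genes of glutamine, aspartate and branched-chain metabolism lower by 2-fold or more, 1 higher and a median log2 fold of -0.30 (13.0%, 13.6% and -0.01 over all genes). The median was -0.08 over the list's genes with at least 5 CPM. Bcat1, the cytosolic aminotransferase gene for leucine, isoleucine and valine, had 77 counts (4.70 CPM) in the Dox library and 1133 counts (66.4 CPM) in the untreated library, a log2 fold of -3.79 with an interval of -4.17 to -3.49. Its mitochondrial relative Bcat2 had 912 counts with Dox and 1359 untreated. Gls2, a glutaminase gene, had 0 counts with Dox and 83 untreated, at least 26.5-fold lower against a floor of 3 counts per library, and reached 1 CPM in the untreated library alone. Ass1, of arginine synthesis, had -1.33, Got2, the most abundant per length untreated, -0.68, and Glul, which encodes glutamine synthetase and was named after its value was seen, 1.01.

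Genes of mTORC1 and of the sensors that report amino acids to it held 0 of 31 genes lower by 2-fold or more and 4 higher, with a median of 0.16. The share higher is near the 13.6% of all genes, and is no result about the list. The share lower was below the 13.0% of all genes, a difference that was not tested. Sesn1, a sestrin, had 6118 counts with Dox and 2067 untreated (1.62, interval 1.55 to 1.70), and Sesn3, a further sestrin, had 1.11. The arginine sensor gene Castor1 had 230 counts with Dox and 67 untreated (1.81), and its relative Castor2 had 1.01. The core kinase gene Mtor had -0.24 and its partner Rptor -0.10. Apart from the sestrin and Castor genes above, all with values over 0, the inhibitor genes named here went both ways. They were picked after their values were seen and do not give the balance of all inhibitors in the list. Bmt2, not among them, had 0.94. Deptor, Nprl3 and Depdc5 had -0.82, -0.65 and -0.22, while Nprl2 and Akt1s1 had 0.65 and 0.31. Deptor had only 16 counts with Dox and 31 untreated, and its interval of -1.86 to 0.02 reached past 0. Lamtor2, a lysosomal scaffold gene and the most abundant per length untreated, had 0.08. No test of these differences between the conditions was possible with 1 library each.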
